A study of Mus musculus with 6 samples.

Results

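The Hemk1, Tmem134, Ccng2, Bhlhe40 and Smc5 genes carried 5 of the 6 promoter-class regions with the highest Eomes binding scores in mouse natural killer (NK) cells. The 5 genes were chosen by the −log10 q, rank, fold and pileup of these regions, which were among the highest in every experiment. In the 3 deposited peak lists, 11 of 39073 rows of experiment 1, 15 of 35421 rows of experiment 2 and 22 of 50563 rows of experiment 3 were assigned to them. Intervals that shared at least 1 bp across lists were merged, which gave 17 regions of these genes among 84399 regions in all. Because these measured values chose the members, they are given as a description, with no test.

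The study mapped Eomes by chromatin immunoprecipitation and sequencing, to find where the factor sits in these cells. The 3 immunoprecipitated (IP) libraries and the 3 input libraries, which hold chromatin DNA that was not immunoprecipitated, came from 3 separate experiments on wild-type C57BL/6 mice aged 8 to 12 weeks. NK cells purified from pooled spleen cells had grown for 4 days with 100 ng/mL of the cytokine IL-15, so IP and input share that culture and every measurement is of cultured, stimulated cells from several animals. The antibody was a commercial anti-Eomes antibody (abcam ab23345). Peak lists hold no expression values, so the identity of the cells could not be checked by markers. A pileup from bulk cells also cannot tell apart binding in more cells and more binding per cell.

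Eomes is a T-box transcription factor that NK cells need for maturation, and T-box proteins recognise DNA with the letters GGTGTGA or variants of them. A peak interval is a stretch where IP fragments pile up above background. The summit is its highest point, the pileup is the number of fragments stacked there, and the fold enrichment is the ratio of IP to background in the authors' lists. The class "promoter" means that the interval lies within 3000 bp of a listed transcript start. That start need not be the start of the gene.

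The sequence at the leading summit can be shown for Ccng2 alone, because the RefSeq windows used here (GRCm38.p6, 250 bases before to 50 after a start) reach the leading summits of that gene only. A window exists for 3 of the 5 members. The Ccng2 window covers chr5:93267323-93267622 on the plus strand and lies whole inside the leading region. Its 18 capital letters run from the lowest to the highest of the 3 leading summits, 93267426 to 93267443.
Ccng2: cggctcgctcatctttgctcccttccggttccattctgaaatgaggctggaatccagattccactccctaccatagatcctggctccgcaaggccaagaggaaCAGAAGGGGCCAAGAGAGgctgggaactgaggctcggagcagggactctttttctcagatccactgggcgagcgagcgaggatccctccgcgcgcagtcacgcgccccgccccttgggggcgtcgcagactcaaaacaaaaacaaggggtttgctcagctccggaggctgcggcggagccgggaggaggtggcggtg
The Hemk1 window covers chr9:107338301-107338600 on the minus strand. It is shown for contrast, because it holds the summits of a much lower peak at another listed transcript start of the gene and lies 4533 bp from the leading summit. Its 74 capital letters span those 3 summits.
Hemk1: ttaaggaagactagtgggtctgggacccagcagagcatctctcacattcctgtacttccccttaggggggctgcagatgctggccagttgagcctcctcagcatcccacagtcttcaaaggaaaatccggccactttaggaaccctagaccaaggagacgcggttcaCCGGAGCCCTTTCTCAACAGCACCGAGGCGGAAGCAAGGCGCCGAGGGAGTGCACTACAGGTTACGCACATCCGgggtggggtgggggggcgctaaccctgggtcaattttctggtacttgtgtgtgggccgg
The window of Smc5 itself lies 1174 bp from the median leading summit, outside the leading region, and is not shown. In its place stands the window of Gm33950, a lncRNA gene that runs opposite to Smc5 from the same start region. It covers chr19:23273658-23273957 on the plus strand, lies inside the Smc5 leading region and ends 66 bp before the median leading summit. Its 26 capital letters run from the listed to the RefSeq start of Smc5, which lies on the other strand.
Gm33950: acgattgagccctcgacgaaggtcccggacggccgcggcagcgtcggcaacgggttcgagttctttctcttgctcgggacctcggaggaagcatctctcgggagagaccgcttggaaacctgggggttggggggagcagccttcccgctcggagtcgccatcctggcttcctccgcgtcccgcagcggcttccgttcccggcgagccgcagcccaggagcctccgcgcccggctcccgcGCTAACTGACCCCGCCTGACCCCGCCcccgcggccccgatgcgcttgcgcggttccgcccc

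None of these 3 windows held the T-box letters AGGTGTGA on either strand, nor the core GGTGTGA or its shorter form GGTGTG. The core GGTGTGA occurred in 3.98% of all 32851 windows, the full AGGTGTGA in 1.28% and the shorter GGTGTG in 19.0%. Where a RefSeq window held all 3 summits of a region found in every list, the core occurred in 13 of the 100 windows with the highest binding order and in 96 of the other 1808. The Ccng2 window is among the 100 and is not among the 13. Between the 100 and the other 1808, AGGTGTGA occurred in 6.00% and 1.38%, and the shorter GGTGTG in 23.0% and 20.2%. The Ccng2 window held GGGCGG, the GC box, on its minus strand 100 bp from the median leading summit, as did 35.7% of all windows. Among the windows with 3 summits, 71.0% of the 100 highest and 74.7% of the other 1808 held it. The Ccng2 window also held CCGGAA, the core of ETS factor sites, 87 bp from the median leading summit. So did 14.9% of all windows, 37.0% of the 100 highest and 41.4% of the other 1808. This shorter form was searched after the full CCGGAAGT had been found in none of the 3 windows. The Gm33950 window held GGGCGG at 2 places and the NRF1 motif once, which occurred in 6.23% of all windows. The RUNX letters TGTGGTT, the E-box CACGTG, the CCAAT box, the TATA letters TATAAA and the ZBTB33 motif were in none of the 3. They occurred in 5.27%, 7.15%, 37.4%, 13.6% and 0.466% of all windows in that order. All searches covered both strands.

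GC content was 62.0% in the Ccng2 window, 58.7% in the Hemk1 window and 71.7% in the Gm33950 window, against a median of 52.7% over all windows. The ratio of observed to expected CpG was 0.73, 0.47 and 1.05 in the same order, against a median of 0.38. The windows that held the 3 summits of a shared region had a median GC content of 64.0% and a median CpG ratio of 0.85, so the Ccng2 window lay near these.

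The leading regions stood far above the usual shared promoter, which follows from choosing them as the highest. Promoter-class regions found in all 3 lists numbered 6591, and 12.2% of all merged regions were found in every list. The median pileup of these promoter regions over lists 1, 2 and 3 was 17.0, 14.0 and 24.0 fragments, and the median fold was 4.84, 5.62 and 5.79.

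Hemk1, whose human counterpart adds a methyl group to the release factors that end mitochondrial translation, led the order of all regions, with a mean rank of 6.33 over the 3 lists. The region spanned chr9:107333344-107334809. Its pileup over experiments 1, 2 and 3 was 106, 87 and 141 fragments. Its fold was 24.1, 33.8 and 31.6 in the same order, a mean of 29.8 ± 5.10 (SD, n = 3). The pileup was highest in experiment 3 and the fold in experiment 2.

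Tmem134, which encodes a membrane protein, ranked next among the members, with a mean rank of 7.67. The region spanned chr19:4125288-4126019. Its pileup was 98, 80 and 138 fragments in experiments 1, 2 and 3, and its fold 26.6, 31.3 and 40.7, a mean of 32.9 ± 7.16 (SD, n = 3). The value of 40.7 was the highest fold of any member in any experiment, and there Tmem134 held the highest score of all promoter intervals.

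Ccng2, which encodes cyclin G2, an unconventional cyclin linked to cell cycle arrest, had the steadiest fold. The region spanned chr5:93266904-93267776. Its pileup was 94, 89 and 137 fragments in experiments 1, 2 and 3. Its fold was 26.1, 30.9 and 28.5, a mean of 28.5 ± 2.43 (SD, n = 3), and no other member had so small an SD.

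Bhlhe40, which encodes a helix-loop-helix repressor of the clock that also shapes cytokine output in lymphocytes, had its region at chr6:108659986-108660907. Its pileup was 94, 80 and 134 fragments in experiments 1, 2 and 3, close to that of Ccng2. Its fold was 25.02, 29.74 and 18.95, a mean of 24.6 ± 5.41 (SD, n = 3). Experiment 3 was thus the highest by pileup and the lowest by fold. The background recovered there from pileup and fold was 6.12 fragments, 2.63 times the lowest background shared by many peaks of that list. The ratio was 1.54 in experiment 1 and 1.31 in experiment 2. Because it is computed from pileup and fold, this background restates them and is no separate measurement. By score, Bhlhe40 was ranked 12 in list 1, 13 in list 2 and 32 in list 3.

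Smc5, which encodes a subunit of the SMC5/6 complex that guards chromosomes during repair and replication, had its region at chr19:23273385-23274236. Its pileup was 89, 87 and 111 fragments in experiments 1, 2 and 3, and its fold 18.2, 26.0 and 28.5, a mean of 24.3 ± 5.36 (SD, n = 3). The background recovered from pileup and fold in experiment 1 was 3.93 fragments, 2.16 times the shared lowest value of that list. It restates the low fold at that pileup. The pileups of experiments 1 and 2 differed by 2 fragments.

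**Figure D1:**
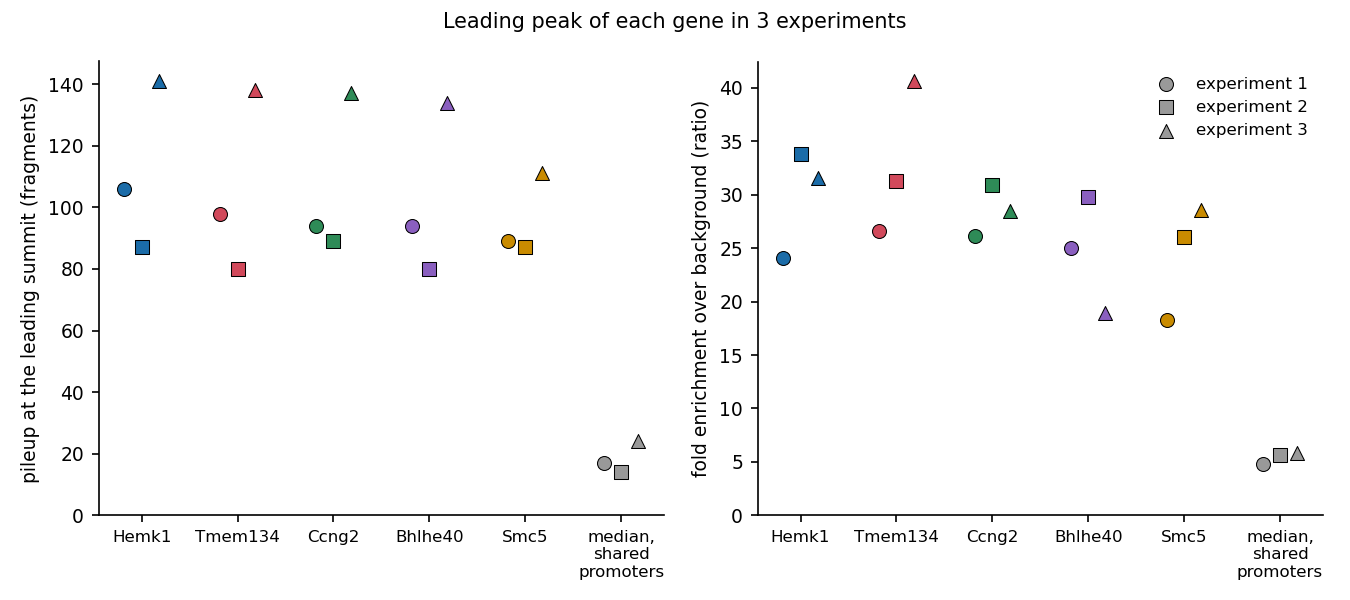
Pileup in fragments (left) and fold enrichment as a ratio (right) at the leading peak of each gene, with 1 marker per experiment, beside the median of promoter regions found in all 3 lists in grey. Pileup was highest in experiment 3 for all 5 genes (111 to 141 fragments), while the fold of Bhlhe40 was lowest there (18.95).

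The higher pileups of experiment 3 went with a higher level at other promoters. Divided by the median pileup of shared promoter regions in the same list, the members ran from 5.24 to 6.24 in experiment 1, from 5.71 to 6.36 in experiment 2 and from 4.62 to 5.88 in experiment 3. These ranges overlapped. Among the 5 genes, the mean folds lay between 24.3 and 32.9 with SDs of up to 7.16, and part of their order by fold held in every experiment. Of the 10 pairs of members, 5 kept the same order in all 3 experiments: Tmem134 was above Ccng2, Bhlhe40 and Smc5, Ccng2 was above Bhlhe40, and Hemk1 was above Smc5. The other 5 pairs changed order between experiments.

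The members were ranked 1, 3, 4, 5 and 6 among promoter-class regions. The place between Hemk1 and Tmem134 belonged to Gm12344, whose region was more than 2000 bp from its listed start and had folds of 39.4, 31.7 and 30.0. Just inside the choice stood Smc5, with a mean rank of 24.3. Just outside it stood a region on chromosome 10 listed under ENSMUSG00000093799, with a mean rank of 24.7 and folds of 14.9, 26.9 and 34.1. The regions that followed belonged to Ncbp3 (mean rank 32.2), Foxj3 (34.8), Creb1 (38.3) and Hace1 (38.7). Hace1 had folds of 27.3, 27.8 and 26.0, above the mean fold of Smc5, so no gap in fold separated the members from the regions below them.

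The regions most like the members were found by the distance of their log2 folds over the 3 experiments from the members' geometric means, which were 23.8, 30.3 and 28.8. Hace1 was nearest, at a distance of 0.277. A region of Gm13387 followed at 0.306, with folds of 19.8, 27.6 and 30.6. A region of Il20rb came next at 0.372, with folds of 20.2, 25.2 and 26.7. With 3 experiments this measure rests on 3 values per region.

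**Figure D2:**
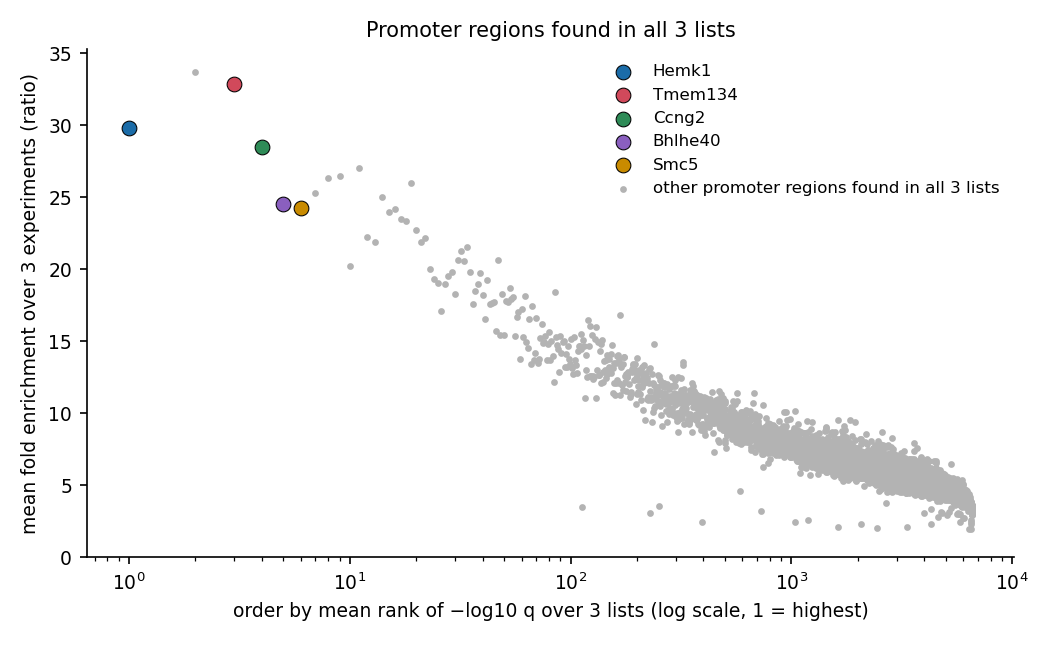
Mean fold enrichment (ratio, over 3 experiments) against the order by mean rank of −log10 q (log scale) for the 6591 promoter regions found in all 3 lists. The 5 genes lie between folds of 24.3 and 32.9 at the left, with Gm12344 (33.7) among them and no gap to the regions that follow.

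Within the leading regions, the summits of the 3 experiments lay almost on top of each other. The outermost summits were 2 bp apart at Hemk1, 17 bp at Tmem134, 17 bp at Ccng2, 21 bp at Bhlhe40 and 14 bp at Smc5. All 5 were within 100 bp, as were 57.0% of promoter-class regions found in every list. The median distance was 80.0 bp over the other 6586 regions. Among the 100 highest of those regions it was 19.5 bp, and 96 of the 100 were within 100 bp. The members thus had the summit positions that other high-scoring promoters had. Without experiment 1, the summits of Hemk1 coincided and those of Bhlhe40 and Smc5 were 1 bp and 4 bp apart.

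**Figure D3:**
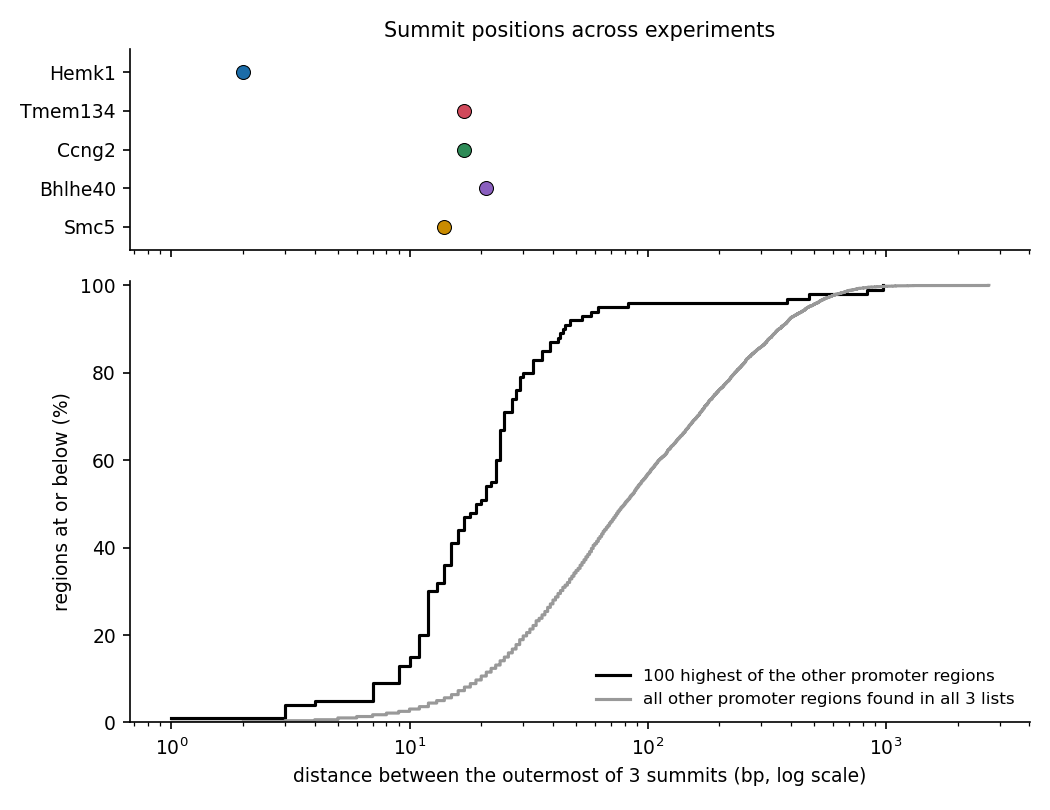
Distance in bp (log scale) between the outermost of the 3 summits, for each of the 5 genes (top) and as the cumulative percentage of other promoter regions (bottom). The members lie between 2 and 21 bp, in the range of the 100 highest of the other promoter regions (median 19.5 bp) and below the median of all others (80.0 bp).

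The leading regions were longer than most shared promoter regions. Merged lengths were 1466 bp at Hemk1, 732 bp at Tmem134, 873 bp at Ccng2, 922 bp at Bhlhe40 and 852 bp at Smc5, against a median of 555 bp over the other shared promoter regions and 684 bp over the 100 highest of them. The lower and upper quartiles of these 100 were 539 and 1001 bp, and among the members Hemk1 alone lay outside them. Tmem134 had the steadiest interval, with listed lengths of 652, 637 and 733 bp. At Smc5 the listed lengths were 379, 508 and 763 bp. The longest interval of each member came from experiment 3. Without that list, the merged lengths were 520 bp at Hemk1, 683 bp at Tmem134, 637 bp at Ccng2, 895 bp at Bhlhe40 and 507 bp at Smc5. The medians of the other regions were not computed without that list, so these lengths cannot be set against them.

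The Hemk1 region was a pair of peaks. A second summit lay 655, 640 and 657 bp from the leading one in experiments 1, 2 and 3. Its pileup was 76, 49 and 100 fragments, which is 71.7%, 56.3% and 70.9% of the leading pileup. Its fold was 17.3, 10.1 and 22.4. Experiments 1 and 2 listed the 2 summits as separate intervals, and experiment 3 listed them as sub-peaks of a single interval of 1467 bp, which joined all of them on merging. Taken alone, the second summit was 63rd by score among the rows of list 1, 435th in list 2 and 79th in list 3.

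The other members had weaker side summits. Ccng2 had summits 482 and 1085 bp downstream of the leading one in experiment 1, with pileups of 12 and 16 fragments. In experiment 2 they lay at 666 and 1119 bp, with 9 and 10 fragments, and in experiment 3 a summit of 28 fragments lay at 826 bp. Experiment 3 also listed a summit of 19 fragments 406 bp upstream, inside the leading interval. The best-scored summits of the 3 experiments in the merged flanking region of Ccng2 spread over 302 bp. Bhlhe40 had a flanking region found in every list, with summits 826, 808 and 826 bp upstream of the leading one, pileups of 20, 22 and 45 fragments, and a mean fold of 7.93 ± 1.35 (SD, n = 3). A further Bhlhe40 summit lay past the transcript start in experiments 2 and 3, at 399 and 428 bp from the leading one, with 20 and 19 fragments. Smc5 had a side summit inside the gene in experiments 2 and 3, with 11 and 13 fragments. Within 2000 bp of its leading summit Tmem134 had no side summit in experiments 1 and 2, and 1 of 13 fragments in experiment 3.

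**Figure D4:**
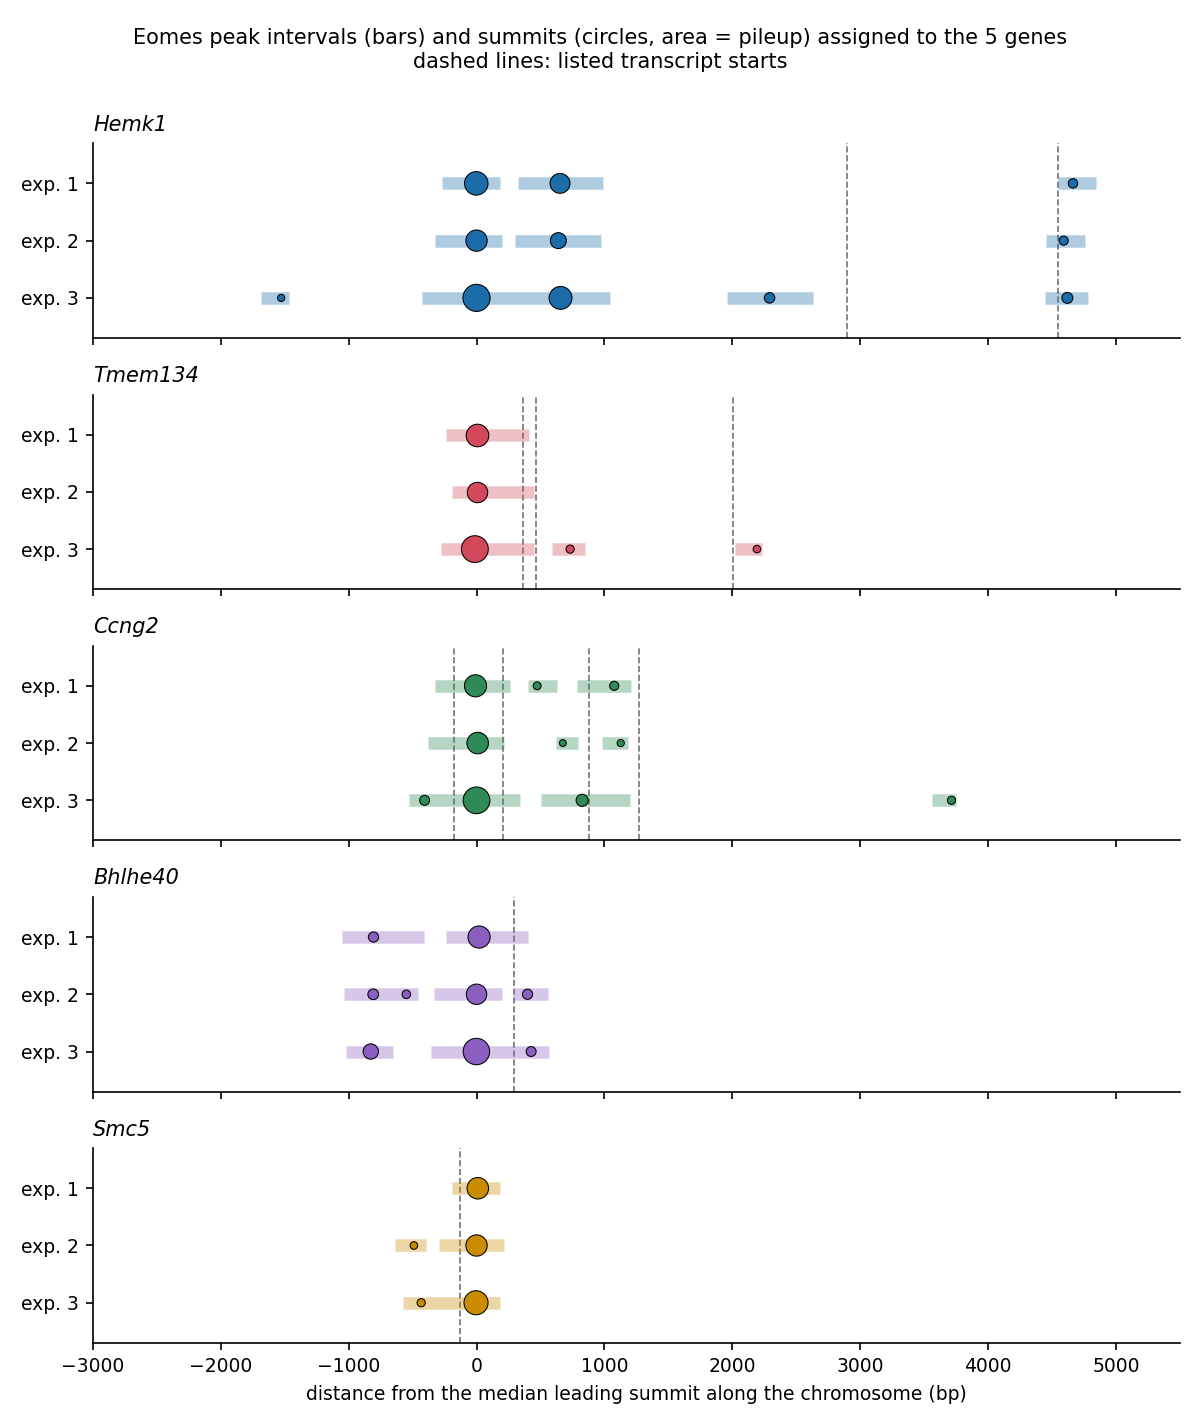
Intervals (bars) and summits (circles, area in proportion to pileup) assigned to each gene in experiments 1 to 3, by distance in bp from the median leading summit along the chromosome, with dashed lines at listed transcript starts. Hemk1 shows 2 strong summits 640 to 657 bp apart and away from its listed starts, while the other genes show a dominant summit near a start. Hemk1 sites more than 3000 bp to the left and the Smc5 site 8182 bp to the right lie outside the plotted range.

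A region with more than 1 summit was not unusual. Of the shared promoter regions, 22.8% had 2 or more summits in list 1, 24.7% in list 2 and 33.0% in list 3. Of the members, 1, 3 and 4 of the 5 did so in the same order. The second Hemk1 summit differed from those of the other members in size: the next highest share of a leading pileup was 33.6%, at the Bhlhe40 flanking region in experiment 3.

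Where the summits lay relative to genes differed between Hemk1 and the rest. Listed distances run from the edge of an interval, so distances were also measured from the summit. At Hemk1 the leading summits lay 2897, 2895 and 2895 bp downstream of a listed transcript start at 107336663, inside the gene, and the start listed for other Hemk1 peaks at 107338317 was farther away. RefSeq placed the start of Hemk1 at 107340437, 6669 bp from the median summit. The Hemk1 region was therefore in the promoter class through a transcript start within the gene. The name promoter fits its class and not the start of the gene.

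At the listed Hemk1 start 107338317, itself inside the RefSeq gene, a lower peak was found in every list. It lay at chr9:107338217-107338610, with pileups of 17, 16 and 23 fragments and folds of 4.94, 7.22 and 5.88 in experiments 1, 2 and 3. The mean fold was 6.02 ± 1.14 (SD, n = 3), close to the medians of shared promoter regions. Its summits spread over 73 bp, the stretch in capitals in the Hemk1 sequence.

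The other leading summits lay near a listed start. At Tmem134 they were 367, 363 and 380 bp upstream. At Bhlhe40 they were 270, 290 and 291 bp upstream, and at Smc5 136, 126 and 122 bp upstream. At Ccng2 they were 169, 186 and 177 bp downstream of the listed start and, by the median summit, 139 bp upstream of the RefSeq start at 93267573. The class within 1000 bp of a start held 4 of the 5 members and 88.9% of the other shared promoter regions.

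At Bhlhe40 and Smc5 the median leading summit lay inside a lncRNA gene of RefSeq that runs on the opposite strand. At Bhlhe40 it was 0610040F04Rik, which starts 595 bp from the summit, and at Smc5 it was Gm33950, which starts 115 bp from it. A summit inside a RefSeq gene other than the assigned one was found at 18.5% of all shared promoter regions. This property was looked for after the loci had been seen, and a list names 1 gene per peak, so binding at these places cannot be given to Bhlhe40 or Smc5 rather than to the gene that overlaps it.

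Near Hemk1, the start of another protein-coding gene, 6430571L13Rik, lay 6872 bp from the leading summit. That gene had 1 region found in at least 2 lists and a highest fold of 4.80. Farther from Hemk1, Cish, which encodes a brake on IL-15 signalling, started 37109 bp from the leading summit and had 1 region found in 2 lists, with a highest fold of 5.24. Mapkapk3 started 43891 bp from that summit and had 2 regions found in every list, with a highest fold of 5.86. Both starts lie beyond the 10000 bp used for neighbours, and a link of either gene to the Hemk1 peak was not tested.

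The 5 genes also had sites beyond the leading regions. Of their 17 regions, 10 were found in at least 2 experiments, as were 23.8% of all merged regions, and 9 were found in all 3. The 5 leading regions, which the choice fixes, are among these 10. Hemk1 had 7 regions, 3 of them in at least 2 lists. Ccng2, Bhlhe40 and Smc5 had 2 such regions each, and Tmem134 had its leading region alone. Over the 11723 gene symbols with a region in at least 2 lists, the median was 1.00 such region and the mean 1.70. Of these symbols, 14.8% had at least as many as Hemk1, and 34.9% at least as many as Ccng2, Bhlhe40 or Smc5.

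The other sites were far weaker, a contrast that the choice of the leading regions builds in. Apart from the leading regions, the 5 regions found in at least 2 lists had mean folds from 3.94 to 7.93. The Smc5 site 8182 bp upstream of its leading summit was found in every list, with folds of 3.30, 7.32 and 3.78. Hemk1 had a site 10028 bp beyond the leading summit, past the end of the gene, with folds of 3.23 in experiment 2 and 4.66 in experiment 3. All 7 regions found in only 1 list came from experiment 3, the longest list, and had folds from 3.04 to 5.98. The strongest of them, at Hemk1, had a pileup of 21 fragments, above the median of 14.0 in that list.

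Other regions around the leading ones had lower folds, which follows from choosing the leading regions as the highest. Within 50000 bp of the leading summit, the highest fold of any other region in a single experiment was taken, not a mean. It was 8.83 around Hemk1, 8.18 around Tmem134, 6.45 around Ccng2, 9.47 around Bhlhe40 and 7.32 around Smc5. The second summit of Hemk1 was merged into its leading region and is not counted as another region. The number of other regions within 50000 bp differed widely. There were 24 around Tmem134, 22 around Hemk1, 10 around Bhlhe40, 2 around Ccng2 and 1 around Smc5. Both of the others around Ccng2 and the 1 around Smc5 were assigned to the same gene.

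Genes that work with the members, or are related to them, had lower folds, which follows from choosing the members as the highest. Of 30 partner genes in the gene table, 22 (73.3%) had a region in at least 2 lists, against 43.6% of all 21887 protein-coding genes. Among the leading partner regions the highest mean fold was 12.5 ± 0.87 (SD, n = 3), at an intergenic site of Nsmce1.

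In the SMC5/6 complex and its loader, 6 of 8 partners of Smc5 had a region. Nsmce1, a ubiquitin ligase subunit, had that site. Nsmce4a, a subunit of the same complex, had a promoter region with folds of 10.7, 9.04 and 6.33. Smc6, which pairs with Smc5 in the ring of the complex, had a promoter region with folds of 3.78, 6.89 and 6.45, a mean of 5.71 ± 1.68 (SD, n = 3). Eid3 had no peak, and Nsmce2 had none shared by 2 lists.

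Among genes of release factor methylation, 3 of 5 partners of Hemk1 had a region. They were N6amt1, the enzyme that modifies the cytosolic release factor, Etf1, which encodes that factor, and Mtrf1l, a mitochondrial release factor gene. Etf1 had a mean fold of 5.01 ± 0.67 (SD, n = 3). Mtrf1l and N6amt1 had regions in experiments 2 and 3 only, at mean folds of 5.97 ± 1.34 and 4.35 ± 1.85 (SD, n = 2 each). Mtrfr was not matched in the gene table, and no peak was assigned to Trmt112 or Mtrf1.

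Of the relatives of Ccng2, Ccng1 and Ccni had a promoter region in experiments 2 and 3, with mean folds of 4.07 ± 0.10 and 4.54 ± 0.89 (SD, n = 2 each), and Gak had none in 2 lists. Of 5 relatives of Bhlhe40, 3 had a region. Bhlhe41, its closest relative, had 3 such regions, the leading one with folds of 5.52 in experiment 2 and 4.50 in experiment 3. Hes1, a repressor downstream of Notch, had a mean fold of 6.89 ± 1.56 (SD, n = 3), and Hes6, of the same family, 4.34 ± 0.85 (SD, n = 3).

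Of 9 clock genes on which Bhlhe40 acts, 8 had a region in at least 2 lists, and Clock was the exception. Per1, which encodes a repressor of the clock, had folds of 4.05, 8.05 and 7.32. Dbp, a clock output gene, had 6.18 in experiment 2 and 8.00 in experiment 3. Per2 had a mean fold of 6.23 ± 0.74 (SD, n = 3). Across all 30 partner genes the number with a region was 14 without experiment 3, which is 46.7% against 30.4% of all protein-coding genes, and 12 with a score (−log10 q) of at least 5 required, which is 40.0% against 25.1%. It was 22 without experiment 1, against 36.6% of all protein-coding genes, and 17 without experiment 2, against 35.3%. With an overlap of at least 50% of the shorter interval it was 21, against 42.0%, and with promoter-class regions alone it was 22, against 37.1%.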

How the data were processed

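The submitters' processing notes name the build mm10, Novoalign for alignment and ChIPseeker for annotation, without versions. No source used here names the peak caller. Peaks were listed per experiment, and the sample descriptions pair each list with 1 IP and 1 input library. The deposited pileup is a signal in whole fragments at the summit. The deposited fold is the ratio of IP to background. Peak scores are the authors' −log10 p-value and −log10 q-value, as deposited, and the smallest −log10 q was 1.30. Library depth is unknown from the labels and files. The background behind each fold was computed as (pileup + 1) / fold − 1, and a Poisson tail at it matched the deposited −log10 p to within 0.000336. The lowest background shared by many peaks was 1.82, 1.32 and 2.33 fragments in experiments 1, 2 and 3.

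Coordinates are as deposited (mm10). The deposited length exceeds each interval by 1.00 bp, so starts may be off by that much. Sub-peaks were collapsed to the row with the highest −log10 q, and intervals sharing at least 1 bp were merged (pandas 2.3.3). Bedtools 2.31.1 gave the same 84399 regions, and the merging was tested on simulated data. Gene and class of a region are those of its best-ranked peak, with ranks by −log10 q. The leading region of a partner gene is the one in most lists, then the one with the highest mean fold. Genes and windows came from RefSeq GRCm38.p6. No test was run, since the members were chosen on these values. The members and lists were chosen with earlier results of these data known. The text names the members, promoter regions ranked above the last member or up to 5 places below it, the 3 most like regions, neighbours, and up to 3 genes per partner list by fold, with absent partners named too. Results on 1 neighbouring gene are not reported here.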

Additional observations from a re-analysis of the deposited data

How the results depend on the processing

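All 5 members stayed among the 20 highest promoter regions, and all 5 kept their summits within 100 bp, under each alternative run: the sub-peak with the highest pileup, each experiment left out, an overlap of at least 50% of the shorter interval, and a −log10 q of at least 5. The first also held with ranking by fold or by pileup. Because the members were chosen by these same values, their stay among the 20 highest follows from that choice. Leaving out an experiment also cannot widen the distance between summits. The regions of the 5 genes found in at least 2 experiments numbered 9 to 10 with an experiment left out and 8 with the stricter score, against 10. The partner genes with a region numbered 14 to 22 with an experiment left out, lowest without experiment 3, and 12 with the stricter score, against 22. The stricter score keeps fewer peaks by construction, and the cause of the loss without experiment 3 was not tested. With an experiment left out, the mean fold of each leading region moved by less than its SD, as a mean of 3 values always does. It did not move with the other sub-peak, overlap or score settings.

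No paired analysis was possible because the peak lists set an IP library against its input and hold no separate input values. With 3 experiments and depth per library unknown, sites near the smallest listed pileups cannot be told from absence.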
